A study of Homo sapiens with 12 samples.

Results

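Transcript levels without knockdown of FOXA1 or TRIM28 were described in a prostate cancer cell line. The 6 control libraries of a knockdown study, of 12 libraries in all, were taken as 1 set. They are the 3 controls of the FOXA1 knockdown and the 3 controls of the TRIM28 knockdown, each a biological replicate by the series design, and all 6 were treated with a control shRNA, so none comes from untreated cells. The members were chosen by library title alone. The genotype labels read WT-FOXA1, WT-FOXA2 and WT-FOXA3 in the first group and WT-TRIM28, WT-TRIM29 and WT-TRIM30 in the second, following the replicate number, and were not used. The cell line field reads LACAP, while the series design and the extraction protocol name LNCaP. Every library carries batch label 1. The sources used here give no culture medium, androgen supply or control shRNA sequence.

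LNCaP is an androgen-dependent line grown from a lymph node metastasis of a prostate cancer. Prostate luminal cells are secretory epithelial cells whose identity rests on androgen signalling and on factors such as FOXA1, HOXB13 and GATA2, which open chromatin or bind beside hormone-activated factors. Under androgen they transcribe kallikrein proteases and the machinery of a secretory, citrate- and polyamine-producing cell. Levels are given as FPKM, the reads of a gene scaled to a fixed gene length and a fixed library total, so levels of different genes can be set side by side. All levels below are on the linear FPKM scale unless a log2 ratio is named, and a gene is called expressed where it reached at least 1 FPKM in all 6 libraries.

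Library totals ran from 12512804 to 15025112 counts, and between 24650 and 26222 of 60835 gene symbols had at least 1 count in a library. The controls of both knockdowns are described as 1 set. Of 14839 genes tested with edgeR's quasi-likelihood test, 0 (0.0%) differed between the 2 control groups at a Benjamini-Hochberg adjusted p under 0.05, which does not show that the groups are alike. Without adjustment 635 of these 14839 genes had p under 0.05 in edgeR, where chance gives about 1 in 20. DESeq2 gave 390 such genes with 33735 tested, and also called 0. limma on log2(FPKM + 1) called 1, RNU6-37P, and edgeR without a filter on low counts called 8, of which the heat shock gene HSPA1B is the 1 that belongs to a list below. Of the 548 genes of the lists and families below, 356 were tested, and their smallest adjusted p in edgeR with the filter was 0.642, for HSPA1B (13.3 and 17.7 FPKM). FOXA1 stood at a mean of 161 FPKM in its own control group and 163 in the TRIM28 controls, and TRIM28 at 112 and 117 FPKM. Replicate 3 of the FOXA1 controls stood apart from the other 5 libraries for several genes named below, and the values of those genes without it are in the closing section. The mitochondrial transcripts took between 9.34% and 12.0% of the summed FPKM and the 86 cytosolic ribosomal protein genes between 10.1% and 11.3%.

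A core of 11356 symbols was expressed in all 6 libraries. It held 10165 of 19748 protein-coding genes (51.5%), 562 of 14259 long noncoding RNAs (3.94%) and 409 of 15091 pseudogenes (2.71%), classed by the GENCODE 29 annotation of GRCh38. At the other end, 27098 symbols (44.5%) had 0 counts in all 6 libraries, among them 2595 protein-coding genes (13.1%). A count of 0 over the summed depth of 82758654 counts allows up to 3 counts, or 0.0363 CPM (counts scaled to a fixed library total). A further 7593 symbols had 1 to 3 counts in all. Intervals and limits here cover counting error only.

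Much of the summed FPKM came from few genes, and less of the counts did. Between 439 and 499 symbols (median 482) held 50% of a library's summed FPKM, 51 to 59 symbols held 25%, and 5206 to 5475 held 90%. With counts in place of FPKM, which weights long genes more, 927 to 985 symbols held 50%. The 30 symbols at a mean of 1000 FPKM or more held 19.3% of the mean FPKM, the 467 from 100 to 1000 FPKM 31.3%, and the 5069 from 10 to 100 FPKM 40.2%. Replicate spread narrowed with level among protein-coding genes: the median coefficient of variation over the 6 libraries was 9.20% at 1 to 10 FPKM, 5.25% at 10 to 100 and 4.23% at 100 to 1000. Among the 26 genes at 1000 FPKM or more it was 4.88%.

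**Figure D1:**
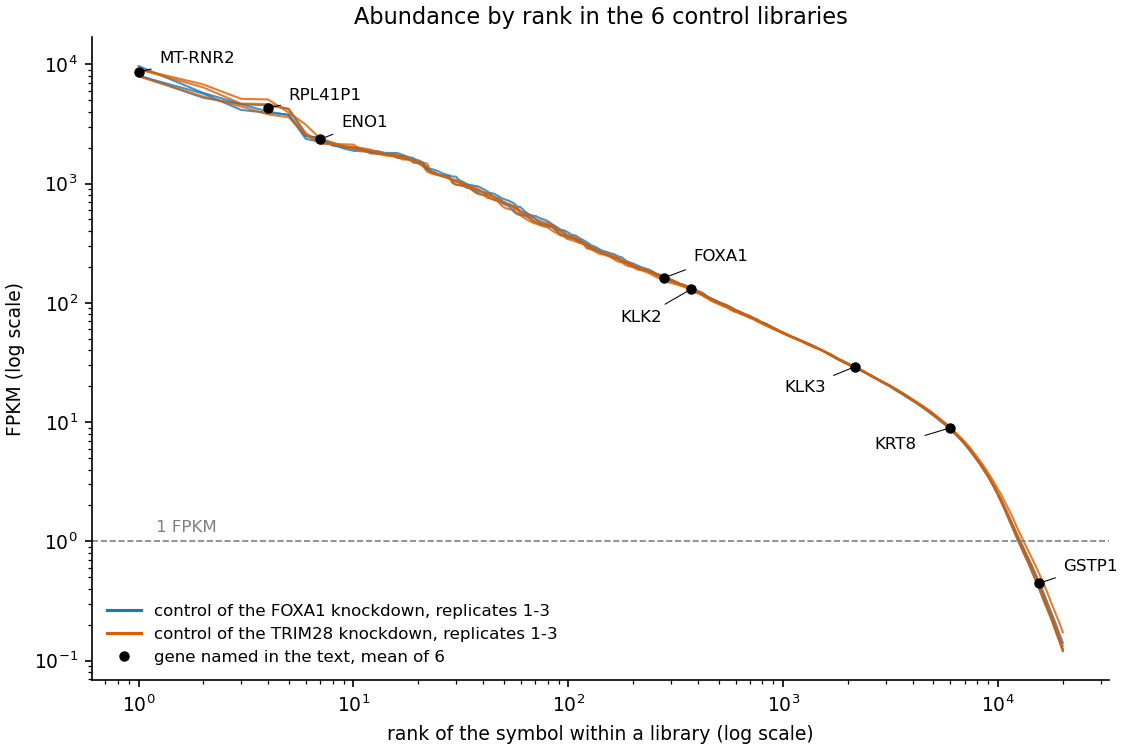
FPKM against the rank of each symbol within a library, both on log scales, with 1 line for each of the 6 control libraries and black points for the 6-library mean of named genes. The lines lie nearly on top of each other; FOXA1 stood at 162 FPKM, KLK2 at 130.2 and KLK3 at 29.1, and GSTP1 fell below the dashed line at 1 FPKM.

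The most abundant nuclear transcripts served translation, glycolysis, the cytoskeleton and protein folding. Of the 20 highest nuclear symbols, 7 were cytosolic ribosomal protein genes, 3 were glycolysis genes, 2 were processed pseudogenes of ribosomal protein genes, and the elongation factors, the cytoplasmic actins and the cytosolic HSP90 chaperones gave 2 each. ENO1, the glycolytic enolase, was the highest nuclear protein-coding gene at 2176, 2365 and 2558 FPKM (lowest, median and highest library). GAPDH reached 1772 to 2119 FPKM and LDHA, which turns pyruvate into lactate, 1620 to 1896. RPL7A, a large-subunit ribosomal protein gene, stood at 2094 ± 68.7 FPKM (SD, n = 6), ACTB at 1983 ± 92.2, EEF1A1, which brings aminoacyl-tRNA to the ribosome, at 1831 ± 62.2, and EEF2, the translocation factor, at 1756.

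Below these came RPL8, RPS2, RPS18, ATP5F1B, CKB, RPL29, RPL7, ACTG1, HSP90AB1, RPL3 and HSP90AA1, with means from 1699 down to 1116 FPKM. CKB, the brain-type creatine kinase that buffers ATP, ran from 1296 to 1698 FPKM. ATP5F1B, a catalytic subunit of the mitochondrial ATP synthase, stood at 1537 ± 61.6 FPKM (SD, n = 6). Of the 37 mitochondrial symbols the 16S ribosomal RNA MT-RNR2 led with 7908 to 9661 FPKM, followed by the cytochrome oxidase subunits MT-CO1 (5229 to 6770), MT-CO3 (mean 4377) and MT-CO2 (mean 4175) and by MT-ND4 (mean 2527). Ordered by mean, each nuclear protein-coding gene from ENO1 to HSP90AA1 overlapped the next in its range over libraries. Within libraries, the higher of 2 neighbours in this order was above the other in all 6 libraries for 4 of 17 such pairs, among them ENO1 over RPL7A and CKB over RPL29.

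The highest nuclear symbol of all was a pseudogene, RPL41P1, at 3912, 4319 and 4629 FPKM. Processed pseudogenes are copies of messenger RNAs that were inserted back into the genome, and RPL41P1 is annotated over only 81 bases at chr20:21755270-21755350 (GRCh38, + strand), against a length of 676 bases behind the FPKM of its parent RPL41 on chromosome 12. All 81 bases are identical to a stretch of an RPL41 transcript, and 156 of 156 bases of RPL39P3 (chr6:73373108-73373263, GRCh38, - strand) are identical to RPL39. Both runs are shown because a read lying within either cannot be told from a read of the parent gene. They are written 5′ to 3′ from GENCODE 29 transcripts, with the start and stop codons in capitals.
RPL41P1 and RPL41: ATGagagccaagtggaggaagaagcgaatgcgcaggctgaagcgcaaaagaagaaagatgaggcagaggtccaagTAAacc
RPL39P3 and RPL39: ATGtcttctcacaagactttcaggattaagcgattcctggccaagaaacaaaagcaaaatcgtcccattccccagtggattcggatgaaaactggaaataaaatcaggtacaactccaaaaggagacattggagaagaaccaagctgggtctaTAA

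These runs hold whole reading frames, of 25 and 51 codons before the stop. RPL41P1 took 28779 counts over the 6 libraries against 25524 for RPL41, and symbols named as RPL41 pseudogenes held 53.1% ± 1.18 (SD, n = 6) of the counts of gene and pseudogenes together. The same share was 42.2% ± 3.34 for RPL39, 36.9% for RPS28 (mostly RPS28P7), 47.3% for RPL9 (mostly RPL9P9) and 17.95% for RPS2 (mostly RPS2P5). It was 4.83% for EEF1A1 and 0.165% for GAPDH, although 49 and 65 pseudogenes carry those names, and 0.0162% for ACTB. The level of a parent and its copy are therefore uncertain for the first 5 of these genes. Of 10158 processed pseudogenes 261 were expressed, and 14 reached 100 FPKM in all 6 libraries, 11 of them with ribosomal protein names. RPL39P3 ran from 929 to 1480 FPKM, and the highest value came from replicate 3 of the FOXA1 controls.

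Luminal transcription factors were high. Of 18 listed factors 16 were expressed and 11 reached 10 FPKM in all 6 libraries, with a median of 47.7 FPKM against 1.62 over all protein-coding genes. FOXA1, the pioneer factor that opens chromatin for hormone-activated factors, stood at 150.2, 166 and 169 FPKM. Its lowest library lay above every value of the factors described next.

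The epithelial ETS factors EHF (135, 143 and 148 FPKM) and SPDEF (106, 134 and 137) came next and overlapped each other. SPDEF was lowest in replicate 3 of the FOXA1 controls, and the other 5 libraries held 133 or more. XBP1, which expands the secretory pathway, lay at 102 to 115 FPKM, HOXB13 at 83.3 to 97.0 and GATA2 at 68.8 to 81.3, with no overlap between these 3. GRHL2, a factor of epithelial junctions, lay at 53.5 to 61.4 FPKM and CREB3L4 at a mean of 56.5. The 2 listed factors that were not expressed were GATA3, with 8 counts in all, and TRPS1, with 14 counts in all; both are markers of breast luminal cells as well.

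In some transcription factor families 1 member held most of the transcripts, and in others the levels were spread. SOX4 held 89.5% of the summed FPKM of 19 SOX genes, TBX3 88.8% of 13 TBX genes and HOXB13 70.5% of 39 HOX genes. The next HOX gene was HOXA10 at 6.21 FPKM against 88.3 for HOXB13. FOXA1 held 49.9% of 45 forkhead genes, ahead of the proliferation factor FOXM1 at 33.9 FPKM. EHF held 31.8% of 24 ETS genes, with SPDEF close behind, and KLF13 held 15.5% of 18 KLF genes. All 8 SMAD and all 8 E2F genes were expressed, and their highest members SMAD5 and E2F1 held 41.5% and 39.0% of their families. These families were gathered by symbol after the levels had been seen.

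**Figure D2:**
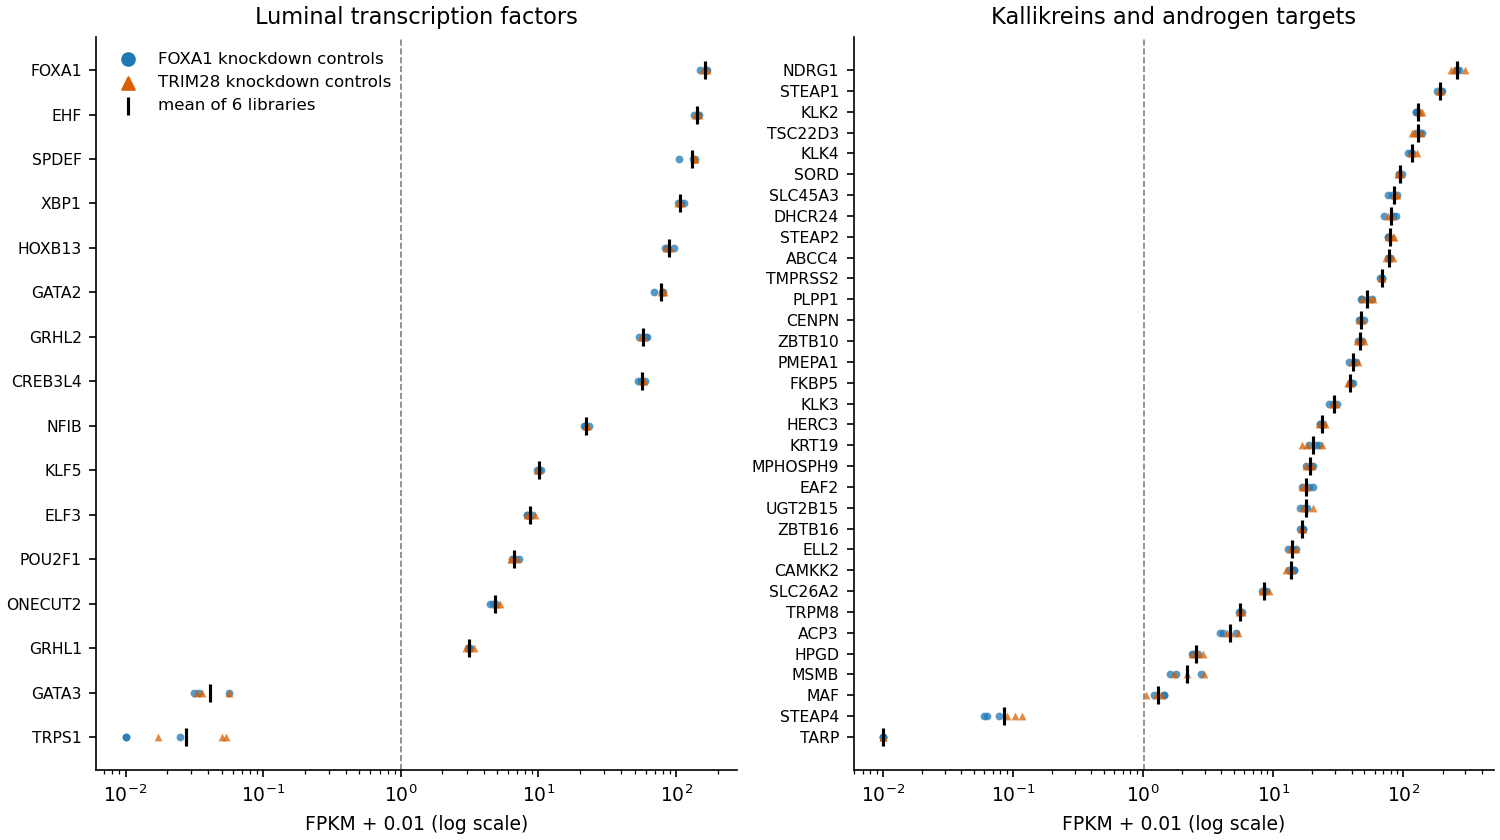
FPKM + 0.01 on a log axis for 16 luminal transcription factors and 33 kallikreins and androgen targets; circles are the FOXA1 knockdown controls, triangles the TRIM28 knockdown controls, ticks the 6-library means, and the dashed line marks 1 FPKM. FOXA1 (162) and NDRG1 (259) stand at the top of the panels, while GATA3, TRPS1, STEAP4 and TARP lie far below the rest.

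Of 33 kallikreins and androgen targets in the table, 31 were expressed and 25 reached 10 FPKM in all 6 libraries. The 2 others were STEAP4 at 0.0753 FPKM and TARP with 0 counts. NDRG1, an androgen- and hypoxia-responsive gene, was highest at 233, 257 and 296 FPKM. It was followed by the metalloreductase STEAP1 (182 to 199), the prostate protease KLK2, TSC22D3, a glucocorticoid- and androgen-induced leucine zipper gene (117 to 140.0), and the protease KLK4. SORD, the sorbitol dehydrogenase, followed at 93.4 FPKM, and TMPRSS2, whose promoter drives ETS fusions in many prostate cancers, lay at 66.2, 68.2 and 68.8 FPKM with the smallest coefficient of variation of the list (1.43%).

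The prostate kallikreins lie side by side on chromosome 19 and were unequal. KLK2 stood at 124, 130.2 and 139 FPKM, KLK4 at 108, 115 and 127, and KLK3, which encodes prostate-specific antigen, at 26.9, 28.96 and 30.8. Every KLK3 value lay below every KLK2 and KLK4 value, and the log2 ratio of KLK2 to KLK3 was 2.16 ± 0.10 (SD, n = 6), a 4.05- to 4.80-fold difference across libraries. KLK2 and KLK4 overlapped in level across libraries, and within each library KLK2 was 1.09- to 1.16-fold higher by the deposited FPKM. With the exonic length of GENCODE 29 in place of the length behind the FPKM the order turned, and KLK4 was 1.42- to 1.51-fold above KLK2 in all 6 libraries. The 2 control groups did not overlap for KLK2 (means of 126 and 135 FPKM, adjusted p = 0.992, edgeR), as for 28 of the 356 listed genes tested and 1375 of all 14839. KLK1 reached 1.86 FPKM, and KLK10 and KLK11 had 6 and 3 counts in all.

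The upstream 250 bases of KLK2 and KLK3 are shown because the genes arose by duplication, are both known to be induced by androgen and yet differed in level. They come from RefSeq (GRCh38.p14), both on the + strand, at chr19:50873189-50873438 for KLK2 and chr19:50854665-50854914 for KLK3, and end at the base before the annotated start. Capitals mark TTTATA, the form of the TATA box found in both, and a 15-base window that in KLK3 is the known proximal androgen response element.
KLK2: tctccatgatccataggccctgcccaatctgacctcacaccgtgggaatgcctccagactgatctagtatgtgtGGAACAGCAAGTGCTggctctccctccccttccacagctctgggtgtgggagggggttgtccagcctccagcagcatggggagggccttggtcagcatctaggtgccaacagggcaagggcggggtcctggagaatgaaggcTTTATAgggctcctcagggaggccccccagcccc
KLK3: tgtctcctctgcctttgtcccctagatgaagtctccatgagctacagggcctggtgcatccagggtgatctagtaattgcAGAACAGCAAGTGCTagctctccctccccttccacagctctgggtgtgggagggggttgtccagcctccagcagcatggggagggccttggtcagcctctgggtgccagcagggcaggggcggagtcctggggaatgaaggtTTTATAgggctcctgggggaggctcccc

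The 2 stretches were identical at 205 of 262 aligned positions (78.2%). The 15-base windows differed at 1 base, A1G from KLK3 to KLK2, counted from the 5′ end of the window. The hexamer AGAACA, 1 form of the half-site of a steroid receptor element, was found in the KLK3 stretch and, on either strand, not in the KLK2 stretch. The KLK2 window starts with GGAACA at the same place, and whether it acts as an androgen response element was not tested. Among the upstream 250 bases of 27305 RefSeq promoters, 12.4% held AGAACA and 11.1% held TTTATA on either strand. These are descriptions of letters in a window, and binding was not measured.

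The metabolic genes that mark a prostate secretory cell were high. Of 25 genes of polyamine, citrate and zinc metabolism 19 were expressed, with a median of 50.2 FPKM. ODC1, the rate-limiting enzyme of polyamine synthesis, stood at 256, 264 and 275 FPKM, with the spermine and spermidine synthases SMS and SRM at 127 and 124. Citrate synthase (CS) lay at 162 to 182 FPKM, ATP citrate lyase (ACLY), which returns citrate to acetyl-CoA for lipid synthesis, at 143 to 169, and the ODC antizyme OAZ1 at 119. Of the zinc genes, MT2A, the main metallothionein here, ran from 51.2 to 81.5 FPKM, and the importers SLC39A6 and SLC39A7 stood at 57.8 and 50.2 FPKM. SLC39A1 was listed at 0.169 FPKM.

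Of 24 genes of luminal epithelial structure 21 were expressed. The beta-catenin gene CTNNB1 led with 108 to 119 FPKM, followed by KRT18 (88.0 to 99.4), the epithelial adhesion gene EPCAM (86.3 to 96.7), plakoglobin (JUP, 79.8), CLDN7 (76.6) and E-cadherin. CDH1, which encodes E-cadherin, lay within 73.7 and 76.8 FPKM and held 84.8% of the FPKM of 23 CDH genes. The simple keratins form pairs of 1 type I and 1 type II protein, but the partner of KRT18, KRT8, was listed at 8.42, 8.97 and 9.22 FPKM, under every KRT18 value. KRT8 pseudogenes held 22.3% ± 2.29 (SD, n = 6) of the counts of KRT8 and its 51 pseudogenes, against 0.988% for KRT18. KRT7 and MUC1 lay under 1 FPKM in every library, with means of 0.238 and 0.639.

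Prostate cancer and secretory markers were split, with 13 of 28 expressed and 4 at 0 counts. GDF15, a stress-induced cytokine, reached 282, 299.8 and 370 FPKM, and FOLH1, which encodes prostate-specific membrane antigen, 248, 261 and 281. SPON2 (60.1), FASN (41.3), AZGP1 (32.9) and RAB3B (17.6) were the next highest by mean. FASN, the fatty acid synthase, was lowest in replicate 3 of the FOXA1 controls, at 32.1 FPKM against 40.9 or more in the other 5.

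Some markers that are known for LNCaP went against the label or were near the detection limit. ETV1, an ETS gene known to be rearranged and overexpressed in LNCaP, had 0 to 3 counts in a library and 7 in all 6, a mean of 0.0132 FPKM. The other PEA3-group factors ETV4 and ETV5 had means of 0.124 and 0.0814 FPKM. OR51E2, the prostate-specific olfactory receptor, NPY, SEMG1 and SEMG2 had 0 counts, which allows up to 3 counts in all. AMACR, a widely used prostate cancer marker, was listed at 0 to 0.123 FPKM. By GENCODE 29, 64.8% of its exonic bases also lie in exons of other genes. The largest overlap is with the readthrough gene C1QTNF3-AMACR, itself at 0.0288 FPKM. The part of shared exons in the AMACR value was not tested, and ETV1 and OR51E2 were not checked beyond their counts. The positive lineage markers above, FOLH1, HOXB13 and KLK2, were present in all 6 libraries.

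Of 18 listed genes known to be silenced, mutated or lost in LNCaP or other prostate cancers, 9 (50%) were expressed. The share over all protein-coding genes was near this, at 51.5%. In all 6 libraries 6 of the listed genes reached 10 FPKM, RB1, RASSF1 and MGMT among them. GSTP1, whose promoter is methylated in most prostate cancers, stood at 0.382, 0.457 and 0.515 FPKM with 62 counts in all. CAV1 and CAV2, the caveolins, had means of 0.175 and 0.248 FPKM, CD44 0.0853, TIMP3 0.431, PTGS2 0.369, ESR1 0.00172 and EDNRB 0.00535. JAK1, known for frameshift mutations in this line, lay between 0.800 and 1.32 FPKM. The cell cycle gene RB1 reached 14.7 ± 0.528 FPKM (SD, n = 6), RASSF1 13.3, MGMT 11.1, CDKN2A 8.46 and RARB 3.11. Values per gene symbol do not separate the transcripts of a gene, so silencing of a single promoter or transcript was not tested.

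Markers of other cell types were mostly near 0. Over 12 lists with 185 different markers, 27 were expressed, 5 reached 10 FPKM in all 6 libraries and 20 had 0 counts, with a median of 0.0712 FPKM. The defining basal genes TP63, KRT5 and KRT14 had means of 0.0138, 0.0582 and 0.182 FPKM, and the summed level of the 18 basal markers ran from 16.6 to 18.8 FPKM, mostly the integrin ITGA6 (9.62 to 12.2), DST (1.99) and BCAM (1.94). Neuroendocrine markers summed to 9.84 to 13.3 FPKM, with ENO2 (5.11), DLL3 (3.20) and SYT4 (1.52) expressed, and CHGA and SYP at 0.141 and 0.521. The stromal genes FBLN1 (5.95), COL1A1 (4.18) and VIM (3.72) were expressed, 3 of 19. Every vimentin value lay below every E-cadherin value.

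Of the blood and vessel lists 4 markers were expressed. These were the endothelial EGFL7 (8.02), 1 of 12, the leukocyte actin-bundling gene LCP1 (11.8 to 13.7), 1 of 19, and the erythroid genes EPOR (8.30) and HBB (3.35), 2 of 10. PTPRC, the pan-leukocyte marker, had a mean of 0.00997 FPKM and PECAM1 0.0445, while HBA1, HBD and HBG2 had 0 counts. LCP1 is also known to be induced by androgen in prostate cancer cells.

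The pancreatic list stood apart from the other solid-organ lists with 6 of 14 expressed. GCG, the glucagon gene, lay at 18.97, 19.8 and 23.4 FPKM, the trypsinogen gene PRSS1 at 7.01 to 9.48, CPA1 at 5.17 to 7.27 and the lipase PNLIP at 3.64 to 4.91, and RFX6 and PPY had means of 2.46 and 1.64. Insulin (INS), PDX1 and NKX6-1 had means of 0.242, 0.461 and 0.0712 FPKM, and IAPP and PAX4 had 0 counts. Liver and gut markers gave HNF4G (3.28) and ALB (2.70), 2 of 18, brain markers MBP (9.90), 1 of 12, and muscle markers 0 of 11. KRT10 (10.7 to 13.1 FPKM), MITF (4.70) and PMEL (1.21) were the 3 of 18 lung, kidney and skin markers.

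Cancer-testis antigens of the MAGEA cluster on the X chromosome were the highest of all markers of other lineages. MAGEA3 stood at 57.4, 58.9 and 64.7 FPKM and MAGEA1 at 36.9, 39.1 and 41.9, while MAGEA4 lay at 0.223. Over the 10 MAGEA genes 4 were expressed, MAGEA6 (43.0) and MAGEA12 (24.2) being the other two; MAGEA3 and MAGEA6 are near-identical copies, so the split between them is uncertain. The other 13 testis and germline markers were not expressed, and PRM1, PRM2, TNP1 and CTAG1B had 0 counts.

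**Figure D3:**
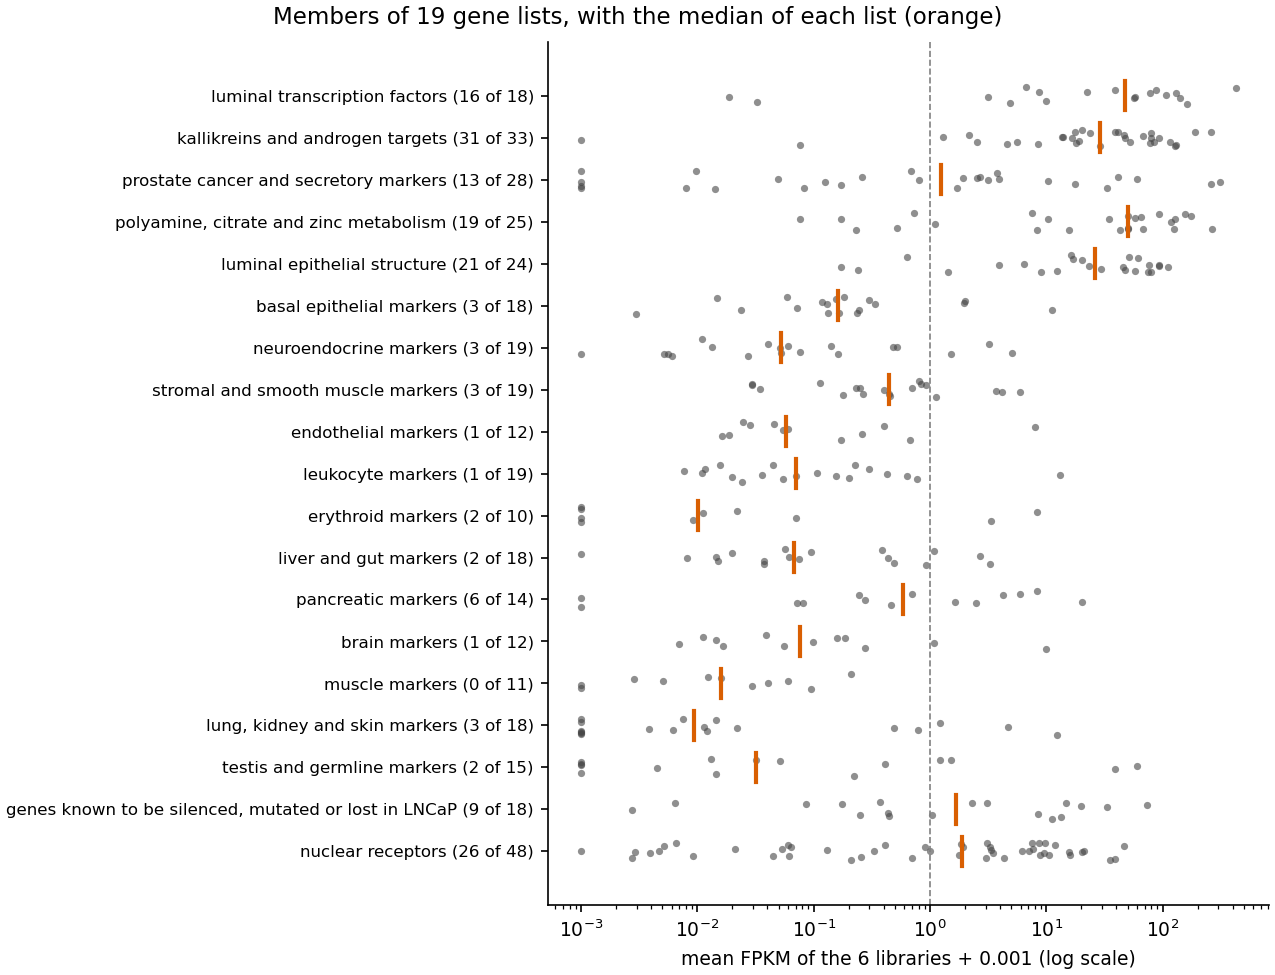
Mean FPKM + 0.001 over the 6 control libraries on a log axis, with 1 grey point for each member of 19 gene lists and an orange bar at the list median; the label gives the number of members expressed of those in the table, and the dashed line marks 1 FPKM. The luminal, androgen target, metabolic and epithelial structure lists have medians of 26.5 FPKM or more, and the 12 lists of other lineages have medians under 1 FPKM.

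Nuclear receptors, the family of ligand-activated transcription factors, were expressed for 26 of 48 genes (54.2%, against 51.5% of all protein-coding genes). The estrogen-related receptor ESRRA was highest (43.1, 47.5 and 50.7 FPKM). The circadian repressor NR1D2 lay at 31.5 to 38.5, below every ESRRA value, and further down stood NR2F6 (21.1), NR1H2 (20.4) and the partner receptor RXRA (16.03). Among the steroid receptors the mineralocorticoid receptor NR3C2 stood at 6.42 to 7.75 FPKM. The glucocorticoid receptor NR3C1 lay between 0.137 and 0.483, under every NR3C2 value. ESR1 and PGR had 1 and 2 counts in all.

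Paralogs are copies of a gene that arose by duplication. The 61 paralog families here were grouped by name or function, and not every member is such a copy. Within libraries the highest member was compared with each other member, giving 152 pairs. In 123 pairs the highest member was at least 2-fold above the other in all 6 libraries after 0.1 FPKM was added to both. In 5 of these pairs the other member had 0 counts and the added 0.1 sets the ratio. Where the other member has counts but is near 0, the added 0.1 lowers the ratio. Of the 147 pairs with counts in both members, 118 were at least 2-fold, 83 at least 10-fold and 43 at least 100-fold apart. By the deposited FPKM only 6 pairs failed to keep 1 order in all 6 libraries: ETV4 and ETV5, TUBA1B and TUBA1C, HSP90AB1 and HSP90AA1, CCNE2 and CCNE1, RB1 and RBL2, and EP300 and CREBBP. By GENCODE 29 exonic length HSP90AB1 was 1.34- to 1.45-fold above HSP90AA1 and TUBA1B 1.46- to 2.07-fold above TUBA1C. ETV4 and ETV5, CCNE2 and CCNE1, and EP300 and CREBBP still kept no single order by that length. The pairs were chosen with levels known and the highest member by its level, so no test is given; a sign-flip test over 6 libraries cannot go below an exact p = 0.03125. Replicate spread does not cover errors of gene length or of read assignment, which are the same in every library. With the exonic length of GENCODE 29 the mean ratio moved by more than 1.5-fold in 37 of 152 pairs, and 4 pairs reversed, none of them among the 123: KLK2 and KLK4, FADS2 and SCD, RB1 and RBL2, and AKT2 and AKT1.

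Transcription and chromatin families often had 1 dominant member. FOXA1 exceeded FOXA3 (5 counts in all) by a log2 ratio of 10.31 ± 0.42 (SD, n = 6), and FOXA2 had 2 counts in all. GATA2 exceeded GATA6 (0.674 FPKM) by a log2 ratio of 6.69, and GRHL2 was 16.4- to 19.3-fold above GRHL1. NFIX (126 FPKM) led the nuclear factor I genes 4.40- to 5.26-fold over NFIC. TRIM28, the corepressor of KRAB zinc fingers, was 7.53- to 8.49-fold above TRIM33. Of the SWI/SNF ATPases SMARCA4 stood at 37.7 to 41.3 FPKM and SMARCA2 at 0.283 to 0.627, a log2 ratio of 6.26 ± 0.39 (SD, n = 6). HDAC1 (176 to 192 FPKM) was 11.4- to 12.5-fold above HDAC2, with HDAC3 at 28.1. EZH2 was 3.19- to 4.06-fold above EZH1 and DNMT1 8.95- to 9.55-fold above DNMT3B, while EP300 and CREBBP (11.2 and 10.1) stayed within 2-fold.

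Growth and signalling families held several pairs of like level. NRAS and HRAS (37.1 and 28.9 FPKM), ARAF and BRAF (21.3 and 12.5), AKT2 and AKT1 (29.03 and 16.5), ERBB3 and EGFR (24.9 and 21.3) and RB1 and RBL2 (14.7 and 13.8) lay within 2-fold of each other in all 6 libraries by the deposited FPKM. By exonic length AKT1 was 1.15- to 1.37-fold above AKT2, and ARAF was 2.49- to 3.06-fold above BRAF. The ratio of ERBB3 to EGFR ran from 0.921 to 1.10 by that length, with no single order. ERBB4 had 11 counts in all. Of the cell cycle genes CCND1 (64.2) was 4.50- to 6.25-fold above CCND3 (9.48- to 13.1-fold by exonic length) and CCND2 was at 0.0262 FPKM, and CDK4 was 35.7- to 56.4-fold above CDK6 (22.05- to 34.8-fold by exonic length). MYC stood at 67.3 to 73.3 FPKM, MYCL at 3.44, and MYCN had 0 counts; PIK3CB led the PI3K catalytic subunits at 24.4 FPKM and PIK3CG had 0 counts. MCL1 (47.0) led BCL2L2 (19.3), BCL2L1 (12.9) and BCL2 (0.856).

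In glycolysis 1 isoform led several steps. HK1 and HK2 (111 and 67.5 FPKM) were both high, PFKM, the muscle-type phosphofructokinase, led PFKL 3.13- to 3.67-fold, and ENO1 exceeded ENO3 and ENO2 by log2 ratios of 7.83 ± 0.25 and 8.84 ± 0.24 (SD, n = 6). PGK1 (528) and PKM (753) stood beside PGK2 and PKLR at 0 counts, and these ratios are neither printed nor drawn. SLC2A1, the main glucose importer, stood at 81.4 FPKM and SLC2A12 at 4.82.

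Several families had an order that differs from the textbook picture of an epithelial cell. ALDOC, the brain-type aldolase, lay at 41.0, 47.0 and 55.2 FPKM, above ALDOA, the widespread form, at 2.11, 4.43 and 5.79. LDHB was listed at 1.30 to 4.34 FPKM, a log2 ratio of 9.40 ± 0.58 (SD, n = 6) below LDHA. RPL22L1 (186 to 222) exceeded its paralog RPL22 (49.3 to 56.7) in every library, by 3.27- to 3.97-fold (5.48- to 6.66-fold by exonic length). By GENCODE 29, 53.5% of the exonic bases of ALDOA and 33.4% of those of LDHB also lie in exons of other genes. The largest overlaps are with AC093512.2 and AC010197.2, while RPL22L1 shares no base.

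Among housekeeping and steroid-handling families, ACTB was 1.61- to 1.72-fold above ACTG1 and EEF1A1 550- to 663-fold above EEF1A2. HSPA8 stood at 725 FPKM, with the stress-induced HSPA1B at 12.4 to 18.7 and HSPA1A at 0.558; HSPA1A and HSPA1B are near-identical, so their split is uncertain. YWHAE (707) led the 14-3-3 genes 3.37- to 3.84-fold over YWHAZ, and SFN was at 0.334. SRD5A1, a steroid 5-alpha reductase that makes dihydrotestosterone, stood at 6.55 to 7.06 FPKM, with SRD5A3 at 2.81 and SRD5A2 at 4 counts in all. UGT2B15 (16.2 to 20.1), which inactivates androgens, led its family, whose members are similar in sequence. UGT2B17 (3.80 to 6.38), which also inactivates androgens, overlapped UGT2B11 (3.39 to 5.47) across libraries.

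**Figure D4:**
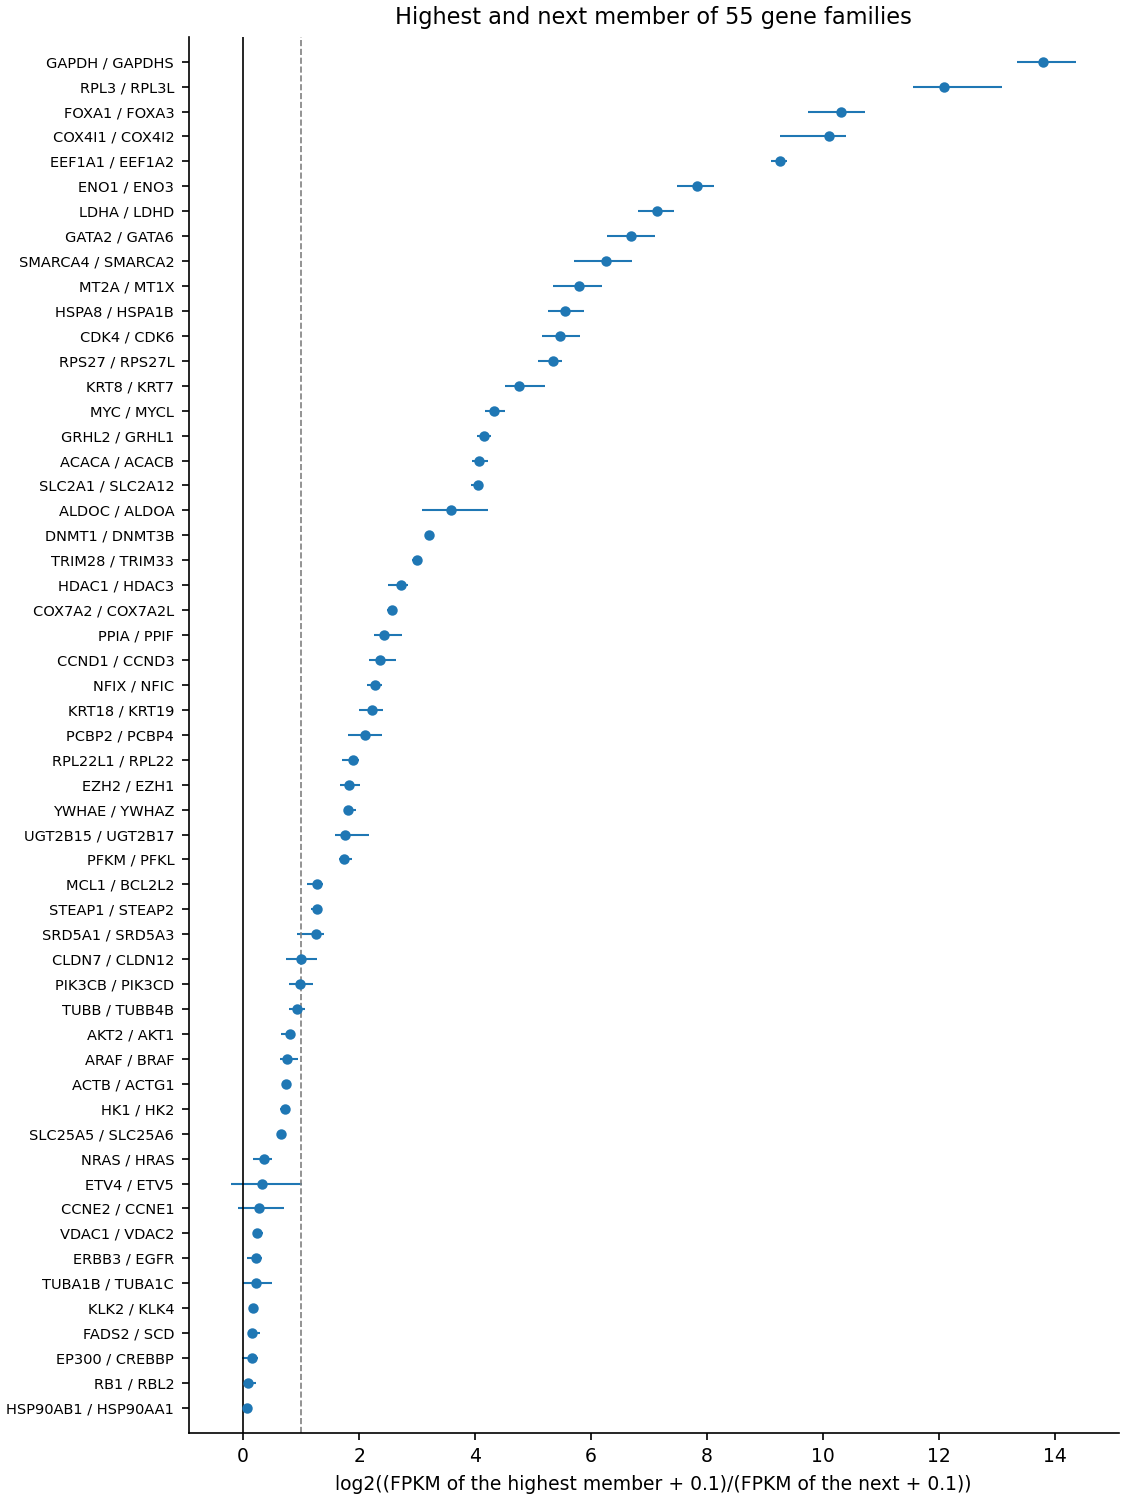
Log2 ratio of the highest to the next member in 55 gene families with counts in both, with 0.1 FPKM added to both; points are means over the 6 control libraries, bars run from the lowest to the highest library, the solid line marks equal levels and the dashed line 2-fold. GAPDH, RPL3 and FOXA1 lie far to the right, where the other member has a mean of 0.181 FPKM or less and the added 0.1 lowers the ratio. HSP90AB1 and HSP90AA1 lie at 0.07 by the deposited FPKM, against 0.49 by exonic length.

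Genes whose exons mostly overlap another gene were rarely expressed. For each nuclear protein-coding gene the share of exonic bases that also lie in an exon of another GENCODE 29 gene was computed. Of 11057 genes that share no base, 5257 (47.5%) were expressed and 1690 (15.3%) had 0 counts. Of 560 genes that share 50 to 90%, 84 (15%) were expressed, and of 431 that share over 90%, 5 (1.16%) were expressed and 358 (83.1%) had 0 counts. Genes that share up to 10%, and 10 to 50%, were expressed in 65.1% and 58.1% of cases.

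Where over 50% was shared on the same strand, 32 of 771 genes (4.15%) were expressed. Where over 50% was shared only with the opposite strand, 38 of 137 (27.7%) were. Genes with a large share were AMACR, ALDOA, GAPDHS (60.8%, 5 counts in all) and PCBP1 (52.2%, with PCBP1-AS1 the largest overlap). PCBP1 lay at 2.41 to 5.01 FPKM, under PCBP2 at 36.9. CTNND1 was listed at 1.10 to 1.83 FPKM and shares 4.64% by GENCODE 29. The table also holds 4772 symbols that GENCODE 29 lacks, whose overlap is not in these shares. Whether the authors' counting dropped reads that fall in 2 genes is not stated in these sources, and its part was not tested. A level near 0 for a gene with a large share is therefore uncertain.

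**Figure D5:**
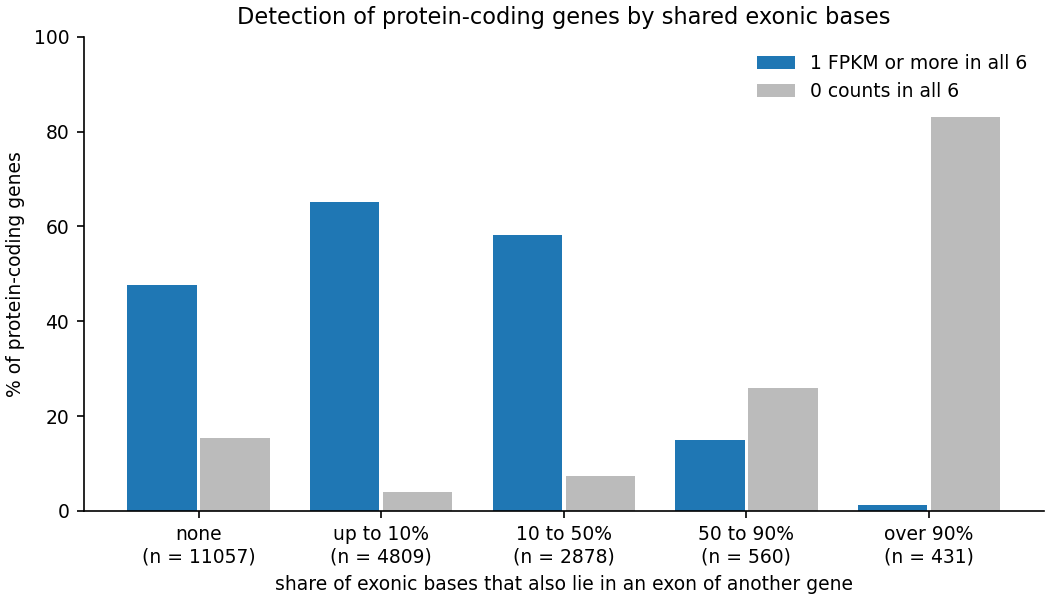
Share of nuclear protein-coding genes (%, axis from 0) that reached 1 FPKM in all 6 control libraries (blue) or had 0 counts in all 6 (grey), by the share of exonic bases that also lie in an exon of another GENCODE 29 gene. Blue falls from 65.1% at up to 10% shared to 1.16% at over 90%, where grey reaches 83.1%.

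Several families known mainly from other cell types had no member at 1 FPKM in all 6 libraries. None of 381 olfactory receptor genes was expressed, and 301 (79.0%) had 0 counts; the highest, OR2A7, stood at 0.493 FPKM. Likewise no member was expressed among 94 keratin-associated protein genes of hair (85 at 0 counts), 53 clustered protocadherins of neurons (16 at 0 counts), 24 bitter taste receptors (9 at 0 counts) and 22 PRAMEF genes (16 at 0 counts). The highest of these protocadherins share 32.2% to 51.3% of their exonic bases with other genes, so low levels in that family are uncertain. Of 22 beta-defensin genes DEFB132 alone was expressed, at 4.27 FPKM. Of 55 keratin genes 5 were expressed and KRT18 held 67.4% of their FPKM.

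The start of the transcript differed by level among expressed protein-coding genes. Genes of the translation machinery are known for a 5′ terminal oligopyrimidine tract, a C at the first base followed by pyrimidines, through which mTOR signalling controls their translation. A C followed by 4 pyrimidines at the first RefSeq start was found in 20.8% of 390 genes at 100 FPKM or more, 5.55% of 4091 at 10 to 100 and 4.26% of 3898 at 1 to 10. Of the 81 such genes in the highest tier 38 were ribosomal protein genes, and without ribosomal protein genes the share there was 12.9%. TATAAA between 45 and 16 bases before the start, on the + strand of the gene, was found in 4.10%, 1.08% and 1.59% of the same tiers. A promoter sequence was matched by symbol for 8379 of 10152 genes (82.5%), and these shares are descriptions with no test.

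Among long noncoding RNAs the small nucleolar host gene SNHG29 (74.4 to 103 FPKM) and NORAD, which binds Pumilio proteins (78.4 to 84.5), were highest. GATA2-AS1, beside GATA2, followed at 39.9 to 51.3 FPKM, then AC092535.4 (45.3), FLJ20021 (45.1), SNHG16 (44.1), GAS5 (35.8) and FGD5-AS1 (32.3). MALAT1, a nuclear RNA, was listed at 1.82 to 5.25 FPKM, and NEAT1 at 14.6 to 24.6. By the deposited coordinates, 81.6% of the span of MALAT1 lies within TALAM1, a symbol on the opposite strand with 4 counts in all, so the MALAT1 level is uncertain. The libraries were made from poly(A)-selected RNA per the labels' protocols. Among prostate transcripts PCAT1 stood at 10.4 FPKM, PCA3 at 3.89 and SCHLAP1 at 0.802.

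Among 461 protein-coding genes at 100 FPKM or more, the least variable over the 6 libraries were AARS1, an aminoacyl-tRNA synthetase (107 to 109 FPKM, coefficient of variation 0.623%), HNRNPF (0.803%), C1orf43 (1.10%), EIF4G2 (1.22%), H2AZ1 (1.33%) and CCT6A (1.37%). The 6 most variable were RPL30 (55.3 to 157 FPKM, 37.8%), UBB (101 to 246, 31.9%), RPL38, RPS21, RPS27 and RPL39, so 5 of 6 were ribosomal protein genes. All 6 were highest in replicate 3 of the FOXA1 controls and lowest in replicate 3 of the TRIM28 controls. Their spreads are therefore not independent of each other. None of these 6 was called between the control groups in edgeR.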

How the data were processed

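RNA was extracted with TRIzol and poly(A)-selected per the labels' protocols. The authors deposited a table of FPKM and tables of raw read counts per gene symbol, with reads placed on GRCh38 per the submitters' processing notes. Aligner, counter, strandedness and annotation release: not given in the sources used here.

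All 60835 symbols were used once, and 56063 matched GENCODE 29, from which gene type and shared exonic bases were computed. Totals of 12512804 to 15025112 counts set the precision of low values. Knockdown libraries were not analysed here. The 2 control groups were compared with edgeR 4.0.16 (TMM, filterByExpr, quasi-likelihood test, Benjamini-Hochberg adjustment), and with limma 3.58.1 and DESeq2 1.42.0 as alternatives, in R 4.3.3. The p-values set the difference between the 2 control groups against the spread between libraries within a group. Paralog ratios are log2 of FPKM + 0.1. Other alternatives were the expression threshold, the pseudocount, the length behind FPKM, counts in place of FPKM, leaving out each library and a replicate block. The edgeR step was tested on simulated data. Upstream sequences came from RefSeq (GRCh38.p14).

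Named genes were the 20 highest nuclear and 5 highest mitochondrial symbols, up to 6 leading members of each list, other-lineage markers at 1 FPKM or more in all 6 libraries, the leading, next and zero members of each paralog family, the 8 highest long noncoding RNAs, the 6 least variable genes at 100 FPKM or more, and the list of genes known to be silenced, mutated or lost. Some genes that meet this rule are not reported here or drawn. Further genes were named after their values were seen. Members, lists and families were chosen with earlier results of these data known.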

Additional observations from a re-analysis of the deposited data

Results flagged for a closer look

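For the named genes and 7 library measures, a library was looked for whose gap to its nearest neighbour exceeded Dixon's critical ratio for 6 values. It was found for 16 of 212, and chance gives about 1 in 20. Of the 16, 9 lay in replicate 3 of the FOXA1 controls and 4 in replicate 1 of the TRIM28 controls.

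In replicate 3 of the FOXA1 controls TRIM28 was lowest at 101.63 FPKM (next 115.94, mean without it 116.76) and SPDEF at 105.61 (next 132.59, mean without it 134.93). GATA2 was lowest there at 68.845 FPKM (mean without it 79.579), FASN at 32.125 (43.164) and NR2F6 at 17.389 (21.822). The ribosomal genes and copies moved the other way in that library: RPL39P3 was highest at 1479.8 FPKM (mean without it 998.39), RPL7 at 1324.3 (1194.4), RPL22L1 at 221.54 (192.29) and RPS27L at 16.82 (12.493).

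In replicate 1 of the TRIM28 controls 13118 symbols reached 1 FPKM, against 12685 in the next library. CCT6A was lowest there at 211.52 FPKM, PFKM at 101.15 and HNF4G at 2.4508 (means without it 218.37, 108.88 and 3.4437). EEF1A2 was highest in replicate 2 of the TRIM28 controls at 3.3178 FPKM (mean without it 2.811), GCG in replicate 3 at 23.392 (19.642) and NFIX in replicate 1 of the FOXA1 controls at 135.4 (124.4).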

How the results depend on the processing

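The count of expressed symbols, 11356, ran from 9923 at 2 FPKM to 13661 on a TPM scale, and from 11389 to 11442 without 1 library. The mean number of symbols that hold 50% of the FPKM, 478, was 670 without mitochondrial symbols and 961 with counts in place of FPKM. The 16 luminal factors were expressed under every threshold tried, and the 27 other-lineage markers became 40 at 0.5 FPKM and 21 at 2. Of 123 unequal paralog pairs, exonic length from the annotation took away 2 (CLDN7/CLDN4 and PCBP2/PCBP4) and added 5, and 0 of the 123 reversed; 4 pairs outside the 123 did. Between the control groups the 0 calls became 8 without a filter on low counts, 1 with limma, and 0 to 2 when a library was left out: CXorf49 without replicate 1 of the FOXA1 controls, MAT2A and MT-ND2 without replicate 2 of the TRIM28 controls. The cause was not tested. With a replicate block edgeR called 0; same-numbered libraries had deviations with correlations of -0.0923, -0.0968 and -0.0976, and the 6 other combinations ran from -0.0382 to 0.136, so the replicate numbers were not taken to pair them. Depth limits genes with few counts, and a gene at 0 counts may hold up to 3.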

Other observations

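Large families were expressed in part: 47 of 63 RAB genes, led by RAB7A (110.2 FPKM), 338 of 475 ZNF genes, led by ZNF664 (65.1), and 167 of 337 solute carriers, led by the mitochondrial ADP/ATP carrier SLC25A5 (453 FPKM). The shares were 74.6% for RAB, 71.2% for ZNF and 49.6% for solute carrier genes, against 51.5% of all protein-coding genes. Of 55 cytochrome P450 genes 12 were expressed, and CYP2R1, a vitamin D 25-hydroxylase, was highest at 10.2 FPKM. Of 24 claudins 6 were expressed and CLDN7 held 46.3% of their FPKM. These families were gathered by symbol after values were seen.

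Of 398 immunoglobulin and T cell receptor segments 302 had 0 counts and 3 were expressed. IGKC, the kappa constant segment, had a mean of 26.7 FPKM, while the pan-leukocyte gene PTPRC had 6 counts in all 6 libraries.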
